A study of Mus musculus with 22 samples.

Results

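The levels of 9 DNA repair genes were followed in haematopoietic stem cells (HSCs) of Cd53 knockout and wild-type mice; Cd53 encodes a tetraspanin. They were Brca1, Brca2, Rad51ap1 and Blm of homologous recombination, Fanca, Fancd2 and Fanci of the Fanconi anaemia pathway, the DNA glycosylase gene Neil3, and the helicase gene Pif1. These are 9 of the 13594 distinct genes in the deposited expression table, taken by symbol, and all 9 passed the filter on low values. The list was drawn up with results of these data known, among them the higher levels of Neil3, Pif1 and Blm in knockout cells after treatment. Every comparison of the 9 genes that holds treated libraries is therefore given as a description with no test. Where such a comparison is given with a count of genes past the threshold of the fit across all genes, the share of all genes stands beside it, and nothing is read from the count.

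HSCs were sorted as KSL cells (lineage-negative, Kit-positive, Sca-1-positive) that lacked CD48 and carried CD150, and their RNA was sequenced. There were 6 groups: HSCs from spleen of G-CSF-treated Cd53 knockout mice (KO, 4 libraries) and of their wild-type littermates (WT, 4), from bone marrow (BM) of G-CSF-treated KO mice (4) and WT mice (3), and from BM of saline-treated KO mice (3) and WT mice (4). Granulocyte colony-stimulating factor (G-CSF) was given for 7 days; it is a growth factor for granulocytes under which HSCs also leave the marrow. The labels do not say how Cd53 was inactivated, or whether the libraries of a group came from separate animals, so p-values measure the spread between libraries, which may in part be technical. The labels also do not say whether spleen and marrow libraries came from the same treated mice. Sorted cells were sequenced in bulk, so that fewer cells with a transcript and less of it per cell cannot be told apart.

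Homologous recombination repairs broken DNA by copying an intact sister sequence, and the Fanconi pathway uses parts of it to remove crosslinks between the strands at stalled replication forks. Loss of the Fanconi genes exhausts HSCs and causes marrow failure. Most of these genes are expressed in S and G2 phase, and many genes of the cell cycle are held down in resting cells by the DREAM complex, which binds E2F and CHR motifs at promoters.

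In the recombination set, Brca1 (ENSMUSG00000017146, chromosome 11, 101488764 to 101551955, minus strand) steers breaks towards recombination, and Brca2 (ENSMUSG00000041147, chromosome 5, 150522630 to 150570329, plus strand) acts in the strand exchange step of recombination. Rad51ap1 (ENSMUSG00000030346, chromosome 6, 126923050 to 126939587, minus strand) encodes a protein that stimulates strand exchange, and Blm (ENSMUSG00000030528, chromosome 7, 80454733 to 80535119, minus strand) the helicase that takes apart crossed recombination intermediates. In the Fanconi set, Fanca (ENSMUSG00000032815, chromosome 8, 123268300 to 123318576, minus strand) belongs to the core ubiquitin ligase. Its substrates are the paired proteins of Fancd2 (ENSMUSG00000034023, chromosome 6, 113531682 to 113597017, plus strand) and Fanci (ENSMUSG00000039187, chromosome 7, 79391929 to 79450264, plus strand). Neil3 (ENSMUSG00000039396, chromosome 8, 53586867 to 53639065, minus strand) removes oxidised bases in single-stranded DNA and unhooks crosslinks. Pif1 (ENSMUSG00000041064, chromosome 9, 65587160 to 65595967, plus strand) unwinds folded DNA and acts at telomeres. Positions are on mouse build mm10 (GRCm38), and all 9 are protein-coding genes.

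RefSeq (build GRCm38.p6) gave a promoter window of 300 bases, 250 before the gene start and 50 after it, for 7 of the 9 genes; Fancd2 and Pif1 were not matched. An E2F-type site (TTTCCCGC, TTTCGCGC, TTTGCCGC or TTTGGCGC, either strand) lay in 1 of the 7 windows, that of Brca2, against 2.26% of 32851 mouse promoters. A CHR motif (TTTGAA or TTCGAA, either strand) lay in 1 of 7, that of Neil3, against 19.2% of all promoters. CCAAT on either strand lay in 4 of 7, those of Brca1, Rad51ap1, Blm and Fanca, against 37.4%. The 250 bases before the start are shown for the genes whose windows held an E2F-type or CHR match, with the match in capitals: Neil3 is chr8:53639066-53639315 (minus strand) and Brca2 is chr5:150522371-150522620 (plus strand). The match in Neil3, at TTCGAA, reads the same on both strands and starts at base -202, and that in Brca2, at GCGGGAAA, is the reverse complement of TTTCCCGC and starts at base -168. These are matches of letters and no evidence of binding.
Neil3: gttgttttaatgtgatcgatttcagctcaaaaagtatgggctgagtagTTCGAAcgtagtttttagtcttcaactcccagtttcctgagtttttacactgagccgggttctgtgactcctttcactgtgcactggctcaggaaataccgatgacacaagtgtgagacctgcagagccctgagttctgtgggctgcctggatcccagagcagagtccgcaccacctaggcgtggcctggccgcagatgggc
Brca2: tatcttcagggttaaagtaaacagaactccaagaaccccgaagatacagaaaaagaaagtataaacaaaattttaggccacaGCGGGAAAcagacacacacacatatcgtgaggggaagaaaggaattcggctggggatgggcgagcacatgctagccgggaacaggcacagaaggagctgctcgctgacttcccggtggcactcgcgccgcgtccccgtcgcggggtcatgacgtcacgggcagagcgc

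The libraries held 22578088 to 31268856 reads in the listed genes. The targeted gene, Cd53, separated the genotypes in each setting without overlap, with KO over WT log2 fold changes of -3.33 ± 0.22 (SE) in spleen after G-CSF, -3.41 ± 0.24 in marrow after G-CSF and -2.84 ± 0.24 in saline marrow. By group mean it was at 6.30 log2 CPM in KO spleen and 6.32 log2 CPM in KO marrow after G-CSF and at 3.07 log2 CPM in KO saline marrow, against 9.63, 9.73 and 5.92 log2 CPM in the matching WT groups. The treated KO groups thus held more reads of Cd53, by their means, than WT saline marrow. The 10 HSC and gate genes checked (among them Kit, Ly6a, Slamf1, Procr, Mecom and Hlf) were all in the table and summed to 3204 to 5122 CPM (reads scaled to a common library size) per library. Of the markers of other cells, 7 of 9 granulocyte and monocyte genes were found and summed to 5.84 to 36.1 CPM in 21 libraries and to 187 CPM in 1 WT saline library, and 4 of 5 megakaryocyte genes to 145 to 305 CPM. The 4 of 7 erythroid genes found summed to 54.4 to 123 CPM after G-CSF and 24.7 to 51.7 CPM after saline, and the 3 of 5 macrophage genes to 0.441 to 7.16 CPM after G-CSF and 7.43 to 17.7 CPM after saline. In marrow after G-CSF the macrophage sums did not overlap, at 1.30 to 3.04 CPM in KO and 3.72 to 7.16 CPM in WT libraries, nor did the megakaryocyte sums in spleen, at 168 to 195 CPM in KO and 145 to 161 CPM in WT libraries. Of those megakaryocyte genes only Vwf did not overlap in spleen, at 76.3 to 90.2 CPM in KO and 51.8 to 69.7 CPM in WT libraries. Itga2b, Gp9 and Pf4 overlapped, and Pf4 had the lower mean in KO spleen (5.85 against 7.10 CPM). The 3 of 6 endothelial and stromal genes found summed to 92.3 to 253 CPM. Nearly all of this was Pecam1, at 89.4 to 250 CPM, with Kdr at 0.152 to 4.77 CPM and Col1a1 at 0.143 to 1.73 CPM. Of the 7 B cell markers, Cd79b was at 99.5 to 151 CPM, and Cd79a, Ms4a1, Pax5, Vpreb1 and Ebf1 were not among the genes analysed. The T and NK cell markers (3 of 6 found, with Cd3e and Cd3d not among them) summed to 148.9 to 219 CPM after G-CSF and 85.0 to 116 CPM after saline. Their part in the results was not tested. KO saline BM replicate 1 stood apart: it was the lowest of its group for 7 of the 9 genes, on average 0.40 log2 units under the group mean, and the comparisons of the 9 genes that hold KO saline marrow are given with and without it, apart from those of the authors' deposited table. Next came KO G-CSF spleen replicate 2, lowest for 6 genes (mean deviation -0.29). WT G-CSF spleen replicate 3 followed, highest for 7 (mean deviation 0.29).

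Per kilobase of exon, Rad51ap1 was the most abundant at a mean of 9.68 CPM per kilobase over the 22 libraries, followed by Neil3 at 6.36, Fanci at 4.33, Brca1 at 2.76, Fancd2 at 1.97, Pif1 at 1.96, Blm at 1.90, Brca2 at 1.85 and Fanca at 1.43. Behind these stood between 115 reads, for Pif1 in its lowest library, and 2377 reads, for Neil3 in its highest. Neil3 also had the widest span of group means, 11.6 CPM per kilobase in KO marrow after G-CSF and 3.35 in WT spleen after G-CSF, while Fanca had a narrow one, 1.65 CPM per kilobase in WT saline marrow and 1.11 in WT spleen.

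WT spleen HSCs held the lowest mean of 8 of the 9 genes. The exception was Pif1, which was lowest in KO saline marrow and highest in KO spleen. The highest mean lay in KO marrow after G-CSF for Brca1, Fancd2, Fanci and Neil3, and in WT saline marrow for Brca2, Fanca, Blm and Rad51ap1. Most steps in these orders were small: of 45 pairs of neighbouring groups, 9 differed by more than the larger of their SDs, and in 2, both for Blm, the libraries did not overlap (KO spleen over WT spleen, and KO marrow after G-CSF over KO saline marrow). The mean of all 9 genes per library ran from 4.56 to 4.85 log2 CPM in KO marrow after G-CSF and from 3.98 to 4.38 in WT marrow after G-CSF, from 4.12 to 4.64 in KO spleen and from 3.64 to 4.13 in WT spleen, and from 3.80 to 4.40 in KO saline marrow and from 4.26 to 4.61 in WT saline marrow. In marrow after G-CSF the genotypes did not overlap; in spleen the lowest KO library lay just below the highest WT library, and in saline marrow the genotypes overlapped.

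**Figure D1:**
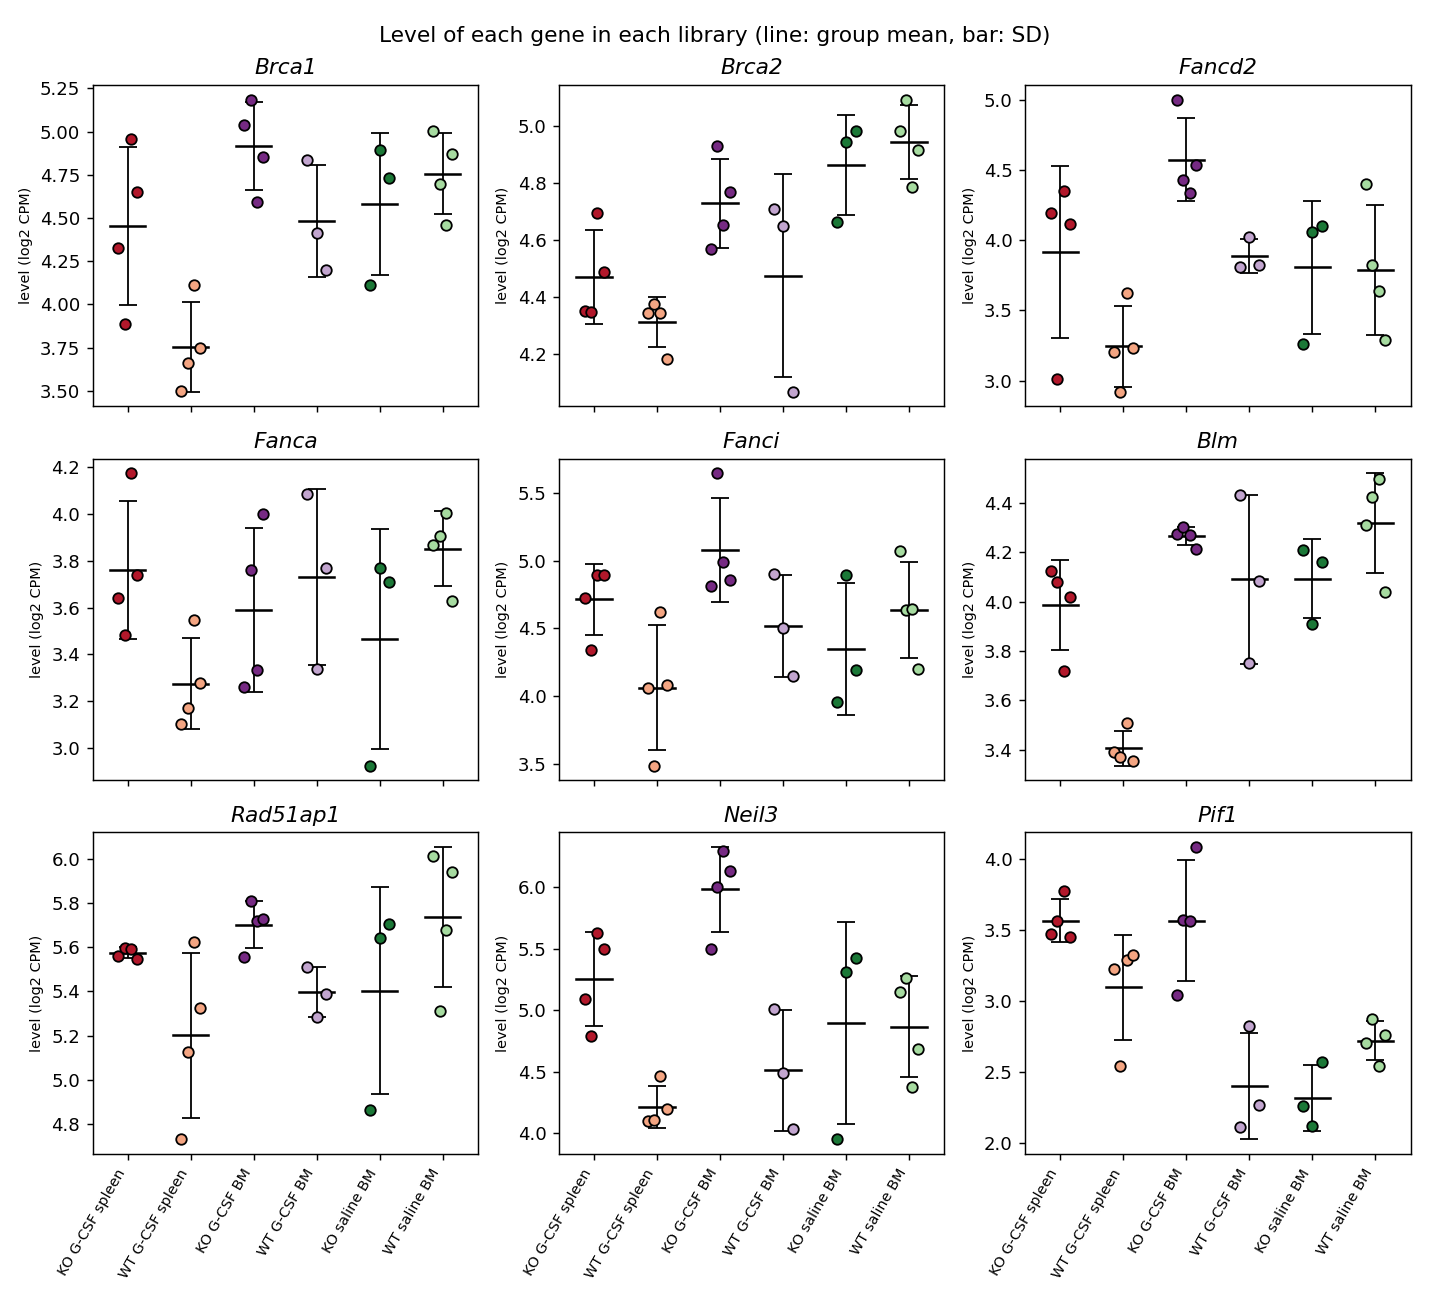
Level (log2 CPM) of each of the 9 genes in each of 22 libraries, by group; points are libraries, the line is the group mean and the bar its SD. WT spleen is lowest for 8 genes, and Neil3 reaches 6.30 log2 CPM in KO marrow after G-CSF.

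The first question is whether the genotypes differed without treatment. These libraries enter none of the genotype comparisons after G-CSF, but they do enter the interaction with G-CSF. In saline marrow they did not differ detectably in any of the 9 genes: 0 passed the limma test at a Benjamini-Hochberg adjusted p under 0.05 over all 13571 genes tested, where 0.00737% of genes passed (1 gene, Cd53). At an unadjusted p under 0.05 the count was 0 of the 9 as well, against 510 of all genes (3.76%), and limma voom on recovered reads also called 0. The median log2 fold change of the 9 was -0.23, beside -0.00 for all genes, and 7 of 9 were negative, with Fancd2 and Neil3 turning negative too when scaled to the reads of the listed genes, which moved the median of all genes by -0.03. Pif1, at 2.26, 2.12 and 2.57 log2 CPM in KO libraries and 2.70, 2.87, 2.54 and 2.76 log2 CPM in WT libraries, had the largest difference (-0.40 ± 0.24, 95% confidence interval -0.90 to 0.09). Neil3 was at 3.95, 5.31 and 5.42 log2 CPM in KO libraries and 5.15, 5.26, 4.37 and 4.69 log2 CPM in WT libraries, a difference of 0.03 ± 0.30 (interval -0.60 to 0.65). The KO libraries thus held both the lowest and the highest Neil3 level of this setting, and the low one was KO saline BM replicate 1. Without it the median of the 9 was -0.06, the differences of Brca1 and Brca2 changed sign (0.06 ± 0.25 and 0.02 ± 0.17), and that of Neil3 was 0.50 ± 0.27.

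After G-CSF the levels in KO marrow were above those in WT marrow for 8 of the 9 genes, with a median log2 fold change of 0.43, beside -0.00 for all genes. The members were chosen from this comparison, so these values are a description. Neil3 was at 5.50, 6.0, 6.30 and 6.13 log2 CPM in KO libraries and 5.01, 4.49 and 4.03 log2 CPM in WT libraries. Every KO library lay above every WT library, and the log2 fold change was 1.47 ± 0.30, or 2.77-fold. Pif1 was at 3.04, 3.58, 3.57 and 4.09 log2 CPM in KO libraries and 2.11, 2.82 and 2.26 log2 CPM in WT libraries, again without overlap, with a log2 fold change of 1.17 ± 0.24, or 2.25-fold. Fancd2 followed, at 5.0, 4.43, 4.34 and 4.54 log2 CPM in KO libraries and 3.81, 4.03 and 3.82 log2 CPM in WT libraries (0.69 ± 0.29). Its partner Fanci differed by 0.56 ± 0.27, Brca1 by 0.43 ± 0.23, Rad51ap1 by 0.31 ± 0.19, Brca2 by 0.25 ± 0.15 and Blm by 0.17 ± 0.16. Fanca was the one with the opposite sign, at 3.26, 3.76, 3.33 and 4.0 log2 CPM in KO libraries and 4.08, 3.34 and 3.77 log2 CPM in WT libraries (-0.14 ± 0.23), the groups overlapping.

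In the fit across all genes, which is no test of genes chosen from this comparison, 2 of the 9 (Neil3 and Pif1) lay past the threshold, both higher in KO, where 0.147% of all genes were past it in either direction and 0.125% were higher. In 4 (Fancd2, Rad51ap1, Neil3 and Pif1) the KO libraries all lay above the WT libraries, as for 4.39% of genes. The count was 0 without KO G-CSF BM replicate 2, KO G-CSF BM replicate 4 or WT G-CSF BM replicate 3, and 1 without KO G-CSF BM replicate 1, WT G-CSF BM replicate 1 or WT G-CSF BM replicate 2. Over all genes 1, 20 and 7 passed in the first case and 3, 15 and 22 in the second, in the order named. The log2 fold changes themselves ran from 1.23 to 1.72 for Neil3 and from 0.997 to 1.38 for Pif1 over these omissions.

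In spleen after G-CSF all 9 genes were higher in KO than in WT HSCs by their means, with a median log2 fold change of 0.58, beside -0.00 for all genes, again as a description. Over omissions of 1 library the median ran from 0.46 to 0.61, and all 9 stayed positive. Neil3 was at 5.09, 4.79, 5.63 and 5.50 log2 CPM in KO libraries and 4.10, 4.10, 4.46 and 4.19 log2 CPM in WT libraries, a log2 fold change of 1.04 ± 0.28. Blm was at 4.12, 4.08, 3.72 and 4.02 log2 CPM in KO libraries and 3.39, 3.37, 3.51 and 3.36 log2 CPM in WT libraries, 0.58 ± 0.15. In both genes, and in Pif1 (0.47 ± 0.22), the KO libraries all lay above the WT libraries, as for 3.5% of genes. Brca1 was at 4.33, 3.89, 4.95 and 4.65 log2 CPM in KO libraries and 3.50, 3.66, 4.11 and 3.75 log2 CPM in WT libraries (0.70 ± 0.21), 3 of its 4 KO values being above all WT values. Fancd2 (0.68 ± 0.27), Fanci (0.65 ± 0.25) and Fanca (0.48 ± 0.21) likewise had 3 of 4 KO values above all WT values. Rad51ap1 (0.37 ± 0.18) and Brca2 (0.16 ± 0.14) differed least. In this fit 0 of the 9 were past the threshold, where 0.0147% of genes were; 8 had an unadjusted p under 0.05, as for 11.8% of genes, and limma voom called 0. Of the 9, 4 (Brca1, Fancd2, Blm and Neil3) were called higher in KO spleen by the authors' deposited table, where 1.4% of genes were.

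**Figure D2:**
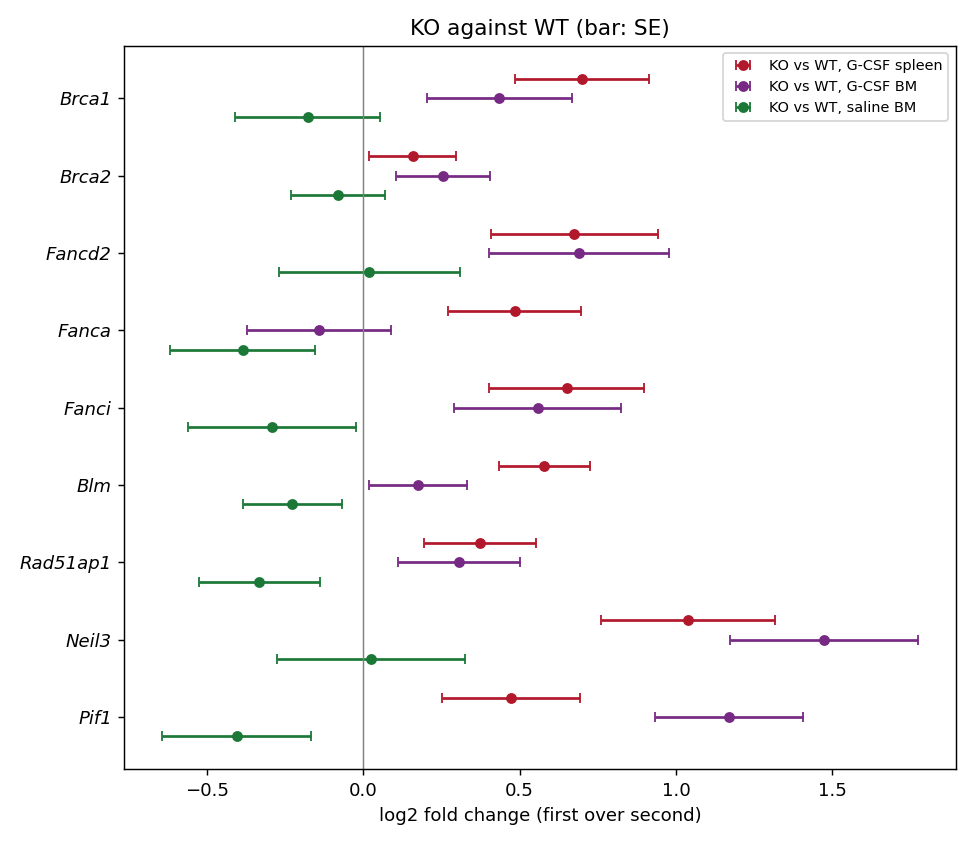
Log2 fold change of KO over WT with its SE for the 9 genes, in spleen after G-CSF (upper point), marrow after G-CSF (middle) and saline marrow (lower). Neil3 lies at 1.04, 1.47 and 0.03, and Fanca at 0.48, -0.14 and -0.39.

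The interaction of genotype with G-CSF, which is the KO response minus the WT response, was positive for all 9 genes, with a median of 0.64 log2 units beside -0.01 for all genes. It was 1.57 ± 0.34 for Pif1, 1.45 ± 0.42 for Neil3, 0.85 ± 0.38 for Fanci and 0.24 ± 0.33 for Fanca. Without KO saline BM replicate 1 it was positive for 8 genes, with a median of 0.40, and it was -0.03 ± 0.32 for Fanca and 0.97 ± 0.37 for Neil3. Past the threshold were 0 of the 9, and 0% of all genes (0 by limma voom as well), with 970 genes (7.15%) at an unadjusted p under 0.05. The interaction of genotype with tissue, the spleen difference in KO minus that in WT, had a median of 0.07 beside -0.01 for all genes and no common sign, from -0.70 ± 0.32 for Pif1 to 0.62 ± 0.31 for Fanca. There too 0 of the 9 and 0% of all genes passed (0 by limma voom), with 1758 genes at an unadjusted p under 0.05. Both are descriptions, since they hold the comparisons that chose the genes.

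The responses of each genotype to treatment share their G-CSF libraries with the comparisons that chose the genes, and share libraries with one another. In KO marrow, Pif1 and Neil3 had the largest differences between G-CSF and saline. Pif1 was at 3.04, 3.58, 3.57 and 4.09 log2 CPM after G-CSF and 2.26, 2.12 and 2.57 log2 CPM after saline, a log2 fold change of 1.25 ± 0.24. Neil3 was at 5.50, 6.0, 6.30 and 6.13 log2 CPM after G-CSF and 3.95, 5.31 and 5.42 log2 CPM after saline, a log2 fold change of 1.09 ± 0.30. Without KO saline BM replicate 1 the log2 fold changes were 1.22 for Pif1 and 0.62 ± 0.27 for Neil3, and that of Fanca changed sign (-0.15). The treated libraries all lay above the saline libraries for both genes, for Fancd2 (0.77 ± 0.29) and for Blm (0.17 ± 0.16), as for 8.81% of genes; Fanci differed by 0.73 ± 0.27. Past the threshold were 2 of the 9, Pif1 and Neil3, both higher (1, Pif1, without KO saline BM replicate 1), where 9.89% of all genes changed and 5.58% rose. Without that replicate 865 of all genes passed, against 1342 in the main fit. The median over the 9 was 0.34, beside -0.01 for all genes, and 0.23 without KO saline BM replicate 1.

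In WT marrow 8 of the 9 had a negative sign between G-CSF and saline. Brca2 was at 4.71, 4.65 and 4.07 log2 CPM after G-CSF and 4.98, 5.09, 4.79 and 4.91 log2 CPM after saline, with a log2 fold change of -0.47 ± 0.15, and -0.26 ± 0.15 without WT G-CSF BM replicate 3. Every treated library lay below every saline library, as for 11.2% of genes. Past the threshold was 1 of the 9, Brca2, where 11.3% of genes were in either direction and 5.63% were lower; Brca2 was not past it without WT G-CSF BM replicate 3 or WT saline BM replicates 1, 2 or 4, by median-of-ratios scaling, on the compared groups alone or with a replicate block. Under those settings 967 to 1514 of all genes passed, against 1528 in the main fit. The median of the 9 was -0.27, beside -0.01 for all genes. Neil3 differed by -0.36 ± 0.30 and Pif1 by -0.32 ± 0.24.

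Between tissues after the same treatment, 8 of the 9 had a lower mean in WT spleen than in WT marrow. Blm was at 3.39, 3.37, 3.51 and 3.36 log2 CPM in spleen and 4.43, 3.75 and 4.08 log2 CPM in marrow, a log2 fold change of -0.68 ± 0.16, and -0.51 ± 0.16 without WT G-CSF BM replicate 1. Brca1 was at 3.50, 3.66, 4.11 and 3.75 log2 CPM in spleen and 4.83, 4.41 and 4.20 log2 CPM in marrow (-0.73 ± 0.23). In both genes and in Fancd2 (-0.64 ± 0.29) each spleen library lay below each marrow library, as for 13.8% of genes. Pif1 had the opposite sign, at 3.22, 2.54, 3.29 and 3.33 log2 CPM in spleen and 2.11, 2.82 and 2.26 log2 CPM in marrow (0.70 ± 0.24). Past the threshold were 2 of the 9, Blm and Brca1, where 13.8% of genes were in either direction and 6.83% were lower. The count was 0 without WT G-CSF BM replicate 1 or with a replicate block, and 1 without WT G-CSF spleen replicates 1 or 4. Of all genes 674, 1041, 1078 and 1388 passed in these settings, in the order named, against 1867 in the main fit. Without WT G-CSF BM replicate 2 or WT G-CSF spleen replicate 2, Brca1 was not past the threshold, while Pif1 was, higher in spleen. The median of the 9 was -0.45, beside 0.02 for all genes.

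In KO mice 0 of the 9 were past the limma threshold between spleen and marrow, where 1.27% of genes were; 3 had an unadjusted p under 0.05, as for 11.4% of genes, and limma voom called 0. The median was -0.28, beside 0.01 for all genes. Neil3 had the largest difference, -0.73 ± 0.28, and Pif1 the smallest, 0.00 ± 0.22. Blm alone had every spleen library below every marrow library, at 4.12, 4.08, 3.72 and 4.02 log2 CPM in spleen and 4.27, 4.30, 4.27 and 4.21 log2 CPM in marrow, as for 2.28% of genes.

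**Figure D3:**
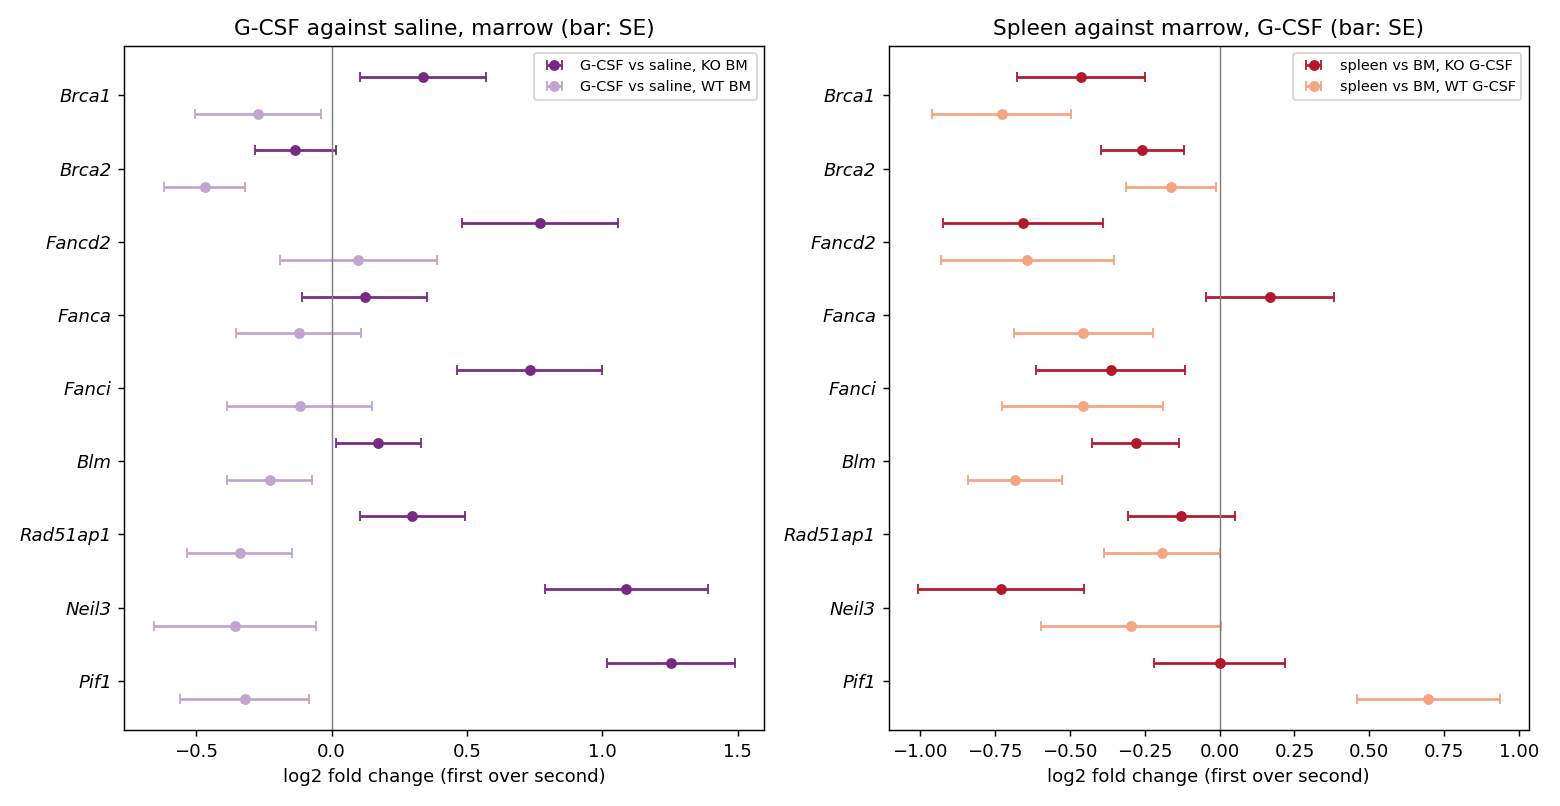
Log2 fold change with SE of the 9 genes for G-CSF over saline in marrow (left panel, KO upper and WT lower point of each gene) and for spleen over marrow after G-CSF (right panel, same order). In KO marrow Pif1 and Neil3 lie at 1.25 and 1.09; in WT marrow 8 of 9 genes lie below 0.

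The authors' deposited table also sets G-CSF spleen against saline marrow, which differ in both tissue and treatment; its calls are given as a description too. In WT mice it called 7 of the 9 lower in spleen, where it called 17.1% of genes lower: Brca1 (log2 fold change -0.997), Blm (-0.98), Neil3 (-0.80), Fanci (-0.71), Brca2 (-0.68), Fancd2 (-0.64) and Fanca (-0.64). Rad51ap1 (-0.41) and Pif1 (0.26) were not called in the authors' deposited table. In KO mice the authors' deposited table called 0 of the 9 lower, where 3.74% of genes were, and 1 higher, Pif1 (1.31), where 5.02% were. The median over the 9 in that table was 0.27 in KO mice and -0.68 in WT mice, beside -0.00 and -0.03 for all genes. The authors' deposited table has no test of the difference between the genotypes here, and none was run. For saline marrow, KO against WT, the authors' deposited table called 0 of the 9, where 0.00736% of genes passed.

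**Figure D4:**
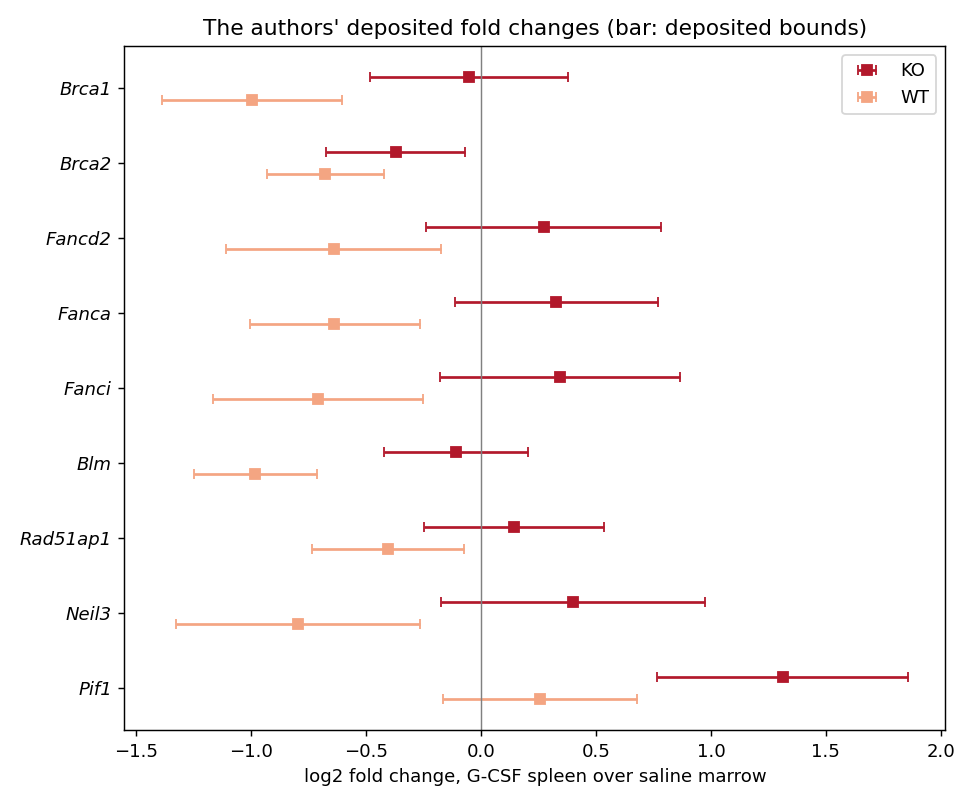
Log2 fold change and bounds from the authors' deposited table for HSCs of G-CSF spleen over saline marrow, KO upper and WT lower point of each gene. In WT mice 8 of the 9 genes lie below 0, and in KO mice Pif1 lies at 1.31.

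The other genes of these pathways were taken from lists drawn up with earlier results known. Counts and p-values of list genes therefore describe these data and are no independent test. Of 60 further recombination and Fanconi genes, all tested, 0 passed the limma test between KO and WT in any of the 3 settings, with medians of 0.03 in spleen after G-CSF, 0.07 in marrow after G-CSF and -0.04 in saline marrow. At an unadjusted p under 0.05 there were 15 in spleen, 5 in marrow after G-CSF and 3 in saline marrow, and limma voom called 0 in each. Those counts are 15, 5 and 3 of 60, where 11.8%, 12.8% and 3.76% of all genes were under that p. Among genes averaging over 3 log2 CPM, the largest differences after G-CSF included those of Brip1, the Fanconi helicase that binds Brca1 (0.61 ± 0.18 in spleen and 0.66 ± 0.20 in marrow), Rad54b, a motor protein of recombination (0.52 ± 0.21 in spleen and 0.58 ± 0.23 in marrow), and in spleen Slx4, a nuclease scaffold (0.58 ± 0.16).

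With G-CSF in KO marrow, 3 of these 60 rose: the recombination gene Rad51b (0.71 ± 0.19, limma adjusted p = 0.0193), Brip1 (0.70 ± 0.20, limma adjusted p = 0.0243) and the core complex gene Fancb (0.75 ± 0.22, limma adjusted p = 0.0300). The genes Rad52 (-0.41 ± 0.13), Faap20 (-0.39 ± 0.12) and Cenpx (-0.38 ± 0.12) fell, and the median was 0.07. These 6 of 60 stand beside 9.89% of all genes that changed and 5.58% that rose, and so lie near the background. Without KO saline BM replicate 1, 0 of the 60 passed, and over all omissions of 1 library the counts ran from 0 to 5 higher and from 0 to 3 lower. In WT marrow 0 of the 60 passed the limma test with G-CSF, limma voom called 0, and the median was -0.05. There 4 of the 60 had an unadjusted p under 0.05, where 24.2% of all genes did.

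Between spleen and marrow in KO mice, 0 of these 60 passed the limma test and limma voom called 0. An unadjusted p under 0.05 was found for 5, and for 11.4% of all genes. In WT mice 2 of the 60 were higher and 4 lower in spleen, where 13.8% of all genes passed and 6.83% were lower. Those higher were Uimc1, of the Brca1 complex that binds ubiquitin (0.41 ± 0.09), and the recombination gene Sfr1 (0.29 ± 0.08). Among those lower were the Fanconi core subunit Faap100 (-0.88 ± 0.19), the chromatin helicase Hells (-0.72 ± 0.21) and the nuclease and helicase Dna2 (-0.52 ± 0.15). Without WT G-CSF BM replicate 1 the counts were 1 higher and 1 lower, in ranges of 1 to 2 and 1 to 4 over all omissions.

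In base excision repair, the pathway of Neil3, 0 of 21 other genes passed the limma test between genotypes. Medians were 0.05 in spleen after G-CSF, 0.11 in marrow after G-CSF and -0.03 in saline marrow. At an unadjusted p under 0.05 there were 6, 3 and 2, beside 11.8%, 12.8% and 3.76% of all genes, and limma voom called 0. With G-CSF, 0 passed in KO marrow (4 at an unadjusted p under 0.05, where 23.9% of all genes were, and 0 by limma voom). In WT marrow the ligase Lig3 rose (0.59 ± 0.15, limma adjusted p = 0.0133) and the glycosylase Neil1 fell (-0.44 ± 0.14, limma adjusted p = 0.0438), each count running from 0 to 1 without 1 library, where 11.3% of all genes passed. In WT spleen relative to WT marrow 4 fell, among them the uracil glycosylase Ung (-2.17 ± 0.47), the scaffold Xrcc1 (-1.10 ± 0.27) and Lig3 (-0.67 ± 0.15), and Parp2, a sensor of strand breaks, rose (0.46 ± 0.09), where 13.8% of all genes passed. In KO mice 0 passed between tissues (3 at an unadjusted p under 0.05, where 11.4% of all genes were, and 0 by limma voom).

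Of 13 replication helicases other than Blm and Pif1, 0 passed the limma test between genotypes. Medians were 0.25 in spleen after G-CSF, 0.19 in marrow after G-CSF and -0.08 in saline marrow. At an unadjusted p under 0.05 there were 3, 2 and 1, beside 11.8%, 12.8% and 3.76% of all genes, and limma voom called 0. With G-CSF 2 rose in KO marrow, Brip1 and the fork remodeller Hltf (0.54 ± 0.15), in a range of 0 to 2 without 1 library, where 5.58% of all genes rose. End joining, which repairs breaks without a template, had 0 of 15 genes past the limma threshold between genotypes. In the same order 3, 3 and 0 had an unadjusted p under 0.05, beside those shares of all genes, and limma voom called 0. With G-CSF the shieldin gene Shld1 fell in KO marrow (-0.68 ± 0.20, limma adjusted p = 0.0376) and the ligase Lig4 rose in WT marrow (1.27 ± 0.33, limma adjusted p = 0.0150), each count running from 0 to 1 without 1 library. Its genes Xrcc4 (0.61 ± 0.13) and Nhej1 (0.61 ± 0.18) were higher in WT spleen than in WT marrow, a count of 1 to 2 without 1 library. Of 19 genes of the damage checkpoint 0 passed the limma test between genotypes, with a median of 0.18 in spleen after G-CSF. At an unadjusted p under 0.05 there were 2, 0 and 0, beside the same shares of all genes, and limma voom called 0. The clamp loader gene Rad17 rose with G-CSF in KO marrow (0.30 ± 0.10), where the count was 0 to 1 without 1 library, and in WT marrow (0.41 ± 0.10). Rad17 was lower in WT spleen than in WT marrow (-0.30 ± 0.10, limma adjusted p = 0.0367), as was H2afx, the histone variant that marks breaks (-1.26 ± 0.38, limma adjusted p = 0.0322), a count of 0 to 2 without 1 library.

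Genes of the cell cycle were measured beside these, in lists that were also drawn up with earlier results of these data known. Their counts are therefore a description. The 30 mitotic genes had a median log2 fold change of KO over WT of 0.60 in spleen after G-CSF, 0.61 in marrow after G-CSF and -0.14 in saline marrow, beside medians of 0.58, 0.43 and -0.23 for the 9 repair genes. Without KO saline BM replicate 1 the saline medians were 0.02 for the mitotic genes and -0.06 for the 9. At an unadjusted p under 0.05 were 24 of the 30 in spleen, 23 in marrow after G-CSF and 0 in saline marrow. Of all genes 11.8%, 12.8% and 3.76% were under that p. In marrow after G-CSF 1 of the 30 passed, the kinesin gene Cenpe (1.03 ± 0.20), where 0.147% of all genes passed. Without 1 library that count was 5 (KO G-CSF BM replicate 3), 1 (WT G-CSF BM replicate 1) or 0 (each of the others). With G-CSF 21 of the 30 rose in KO marrow, where 5.58% of all genes did, among them the spindle checkpoint kinase gene Bub1 (1.30 ± 0.18) and the spindle genes Kif20a (1.18 ± 0.17), Prc1 (1.01 ± 0.15) and Tpx2 (1.14 ± 0.17), with a median of 0.84; without KO saline BM replicate 1 there were 14, with a median of 0.67. In WT marrow 1 rose, Bub1 (0.55 ± 0.18), and 1 fell, Kif23 (-0.88 ± 0.21), with a median of 0.13 and each count running from 0 to 1 without 1 library.

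Between spleen and marrow the mitotic genes had a median of -0.43 in KO mice, where 1 was lower, Tpx2 (-0.62 ± 0.16), in a range of 0 to 1 without 1 library, and of -0.39 in WT mice, beside -0.28 and -0.45 for the 9. In WT spleen 3 of the 30 were lower, the kinesin gene Kif11 (-0.68 ± 0.17), the kinase gene Plk1 (-1.03 ± 0.28) and the topoisomerase gene Top2a (-0.55 ± 0.16), where 6.83% of all genes were. That count was 14 without WT G-CSF spleen replicate 3, 0 without WT G-CSF BM replicate 1, 1 without WT G-CSF spleen replicates 1 or 2, 5 without WT G-CSF BM replicate 3, and 3 or 4 without each of the others.

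The 32 S phase genes had medians of 0.28 in spleen after G-CSF, 0.13 in marrow after G-CSF and -0.08 in saline marrow for KO over WT (0.05 in saline marrow without KO saline BM replicate 1). Past the limma threshold were 0 of the 32, and limma voom called 0. In the same order 14, 4 and 0 of the 32 had an unadjusted p under 0.05, beside 11.8%, 12.8% and 3.76% of all genes. With G-CSF 2 fell in WT marrow, the transcription factor gene E2f1 (-0.94 ± 0.20) and the polymerase gene Pole (-0.67 ± 0.15), where 5.63% of all genes fell. In WT spleen 5 were lower than in WT marrow, among them the polymerase gene Pold1 (-1.34 ± 0.24), the replicative helicase genes Mcm6 (-1.46 ± 0.35) and Mcm2 (-0.67 ± 0.16) and the licensing gene Cdt1 (-0.96 ± 0.28), where 6.83% of all genes were. That count was 1 without WT G-CSF BM replicate 1, 8 without WT G-CSF spleen replicate 3, 3 without WT G-CSF BM replicate 3 or WT G-CSF spleen replicates 1 or 2, and 5 without each of the others. The part of the cell cycle in the levels of the repair genes was not tested.

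**Figure D5:**
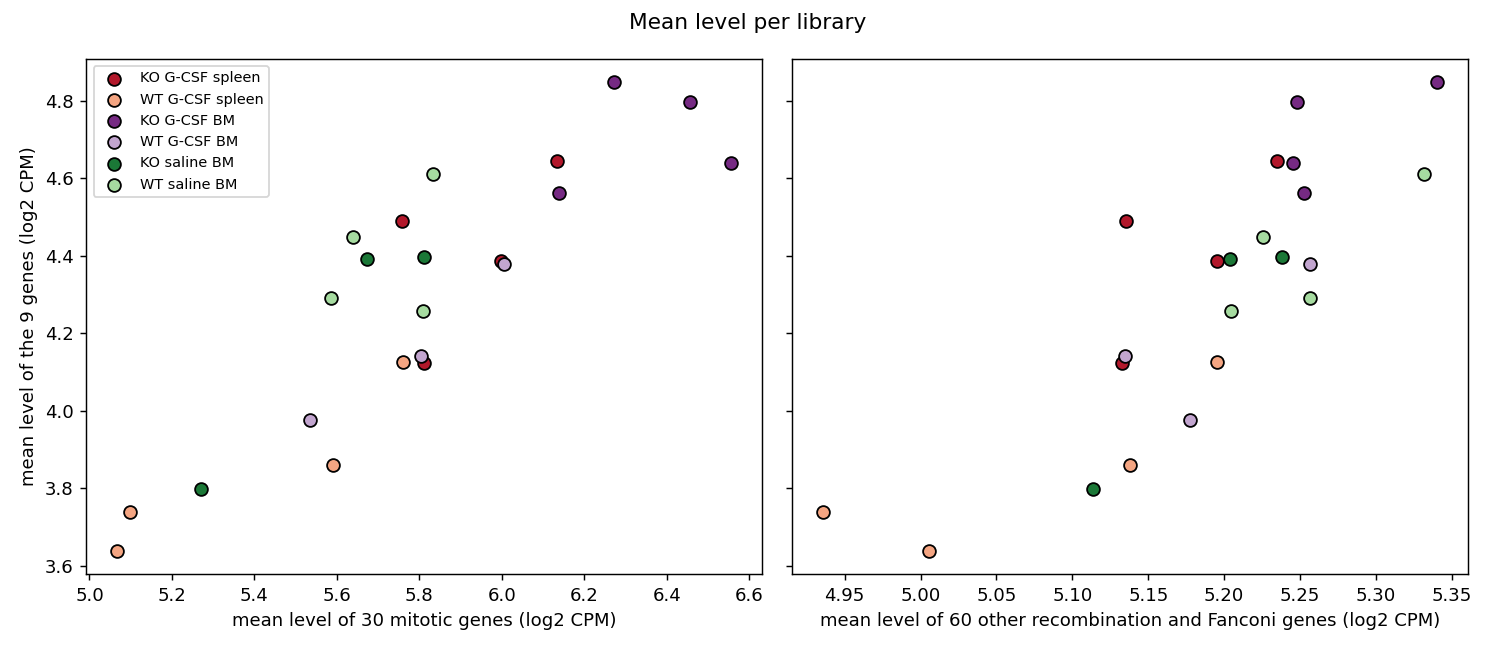
Mean level of the 9 genes (log2 CPM) per library against the mean of 30 mitotic genes (left) and of 60 further recombination and Fanconi genes (right), 22 libraries coloured by group. All 4 libraries of KO marrow after G-CSF lie at 4.56 log2 CPM or above for the 9 genes.

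Within groups the genes varied together to differing degrees. After removal of group means, 30 of the 36 pairs of the 9 genes had a positive Pearson r over the 22 libraries, with a median of 0.37, from -0.34 (Blm with Pif1) to 0.74 (Brca2 with Neil3). Brca1 had the highest median r with the others (0.64), and Blm the lowest (-0.11). The genes outside the list most like the mean of the 9, by the same deviations, were Bub1b (r = 0.93, rho = 0.95), Top2a (0.91 and 0.93), Ercc6l (0.91 and 0.87), Ndc80 (0.89 and 0.88) and Mcm7 (0.86 and 0.87). For Neil3 alone they were Epn2 (r = 0.84), Kntc1 (0.82) and Chd7 (0.80), and for Pif1 alone Klhl4 (r = 0.75), Cc2d2a (0.73) and Flt1 (0.73). All these values come from the same 22 libraries, so each pair of genes shares their depth and preparation, and they carry no test.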

How the data were processed

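RNA of sorted HSCs was amplified with SMARTer Ultra Low RNA chemistry, per the labels' protocols. Build mm10 and the tools limma, edgeR, Salmon 0.8.2, featureCounts 1.4.6-p5 (Subread), STAR 2.5.1a and bcl2fastq are listed, per the submitters' processing notes, without their roles. The authors deposited 1 table with log2 CPM values per library and, for 4 comparisons, p-values, log2 fold changes and their bounds, which were used here, and linear fold changes that carry a sign (a score), which were not. A second worksheet was not used here. Of 13645 lines, 51 repeats were dropped, and 19 symbols turned into dates were looked up by identifier, leaving 13594 genes. Every value gave whole reads (100% of values, tolerance 0.05, prior 0.5 reads), 22578088 to 31268856 per library; depth and the number of libraries limit the precision.

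Genes over 1 CPM in at least 3 libraries (13571) were tested on the deposited log2 CPM with limma 3.58.1 (R 4.3.3), with 6 group means, 16 residual degrees of freedom, a variance trend, and Benjamini-Hochberg adjustment over all of them at a threshold of 0.05. All tests were two-sided. Fold changes stand on that log2 scale, and intervals are 95% intervals of the fit. Simulated data with known changes gave recoveries of 28.4 to 38.8% at 1.5-fold, 53.7 to 59.7% at 2-fold and 68.2 to 75.8% at 3-fold, with 0 to 8 false calls. Counting noise was added there to a fitted spread that already holds it, and many genes were changed together in each comparison. The recoveries therefore do not give the share of real changes that the comparisons reported here would find. Alternatives were no filter, no variance trend, limma voom, library quality weights (statmod 1.5.0), other scalings, a prior of 2 reads, the compared groups alone, a replicate block, and each library left out.

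The members and gene lists were chosen with earlier results of these data known. List genes named are those of smallest p past the threshold, up to 4 per list and comparison, and, between genotypes after G-CSF, up to 4 of largest change with a mean over 3 log2 CPM. Voom and leave-one-out counts of the lists were added after seeing the data. Gene positions came from GENCODE M21 and promoters from RefSeq (GRCm38.p6). Likeness used Pearson's r of deviations from group means. Python 3.11.15, pandas 2.3.3, NumPy 2.4.6, SciPy 1.17.1 and matplotlib 3.10.9 were used.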

Additional observations from a re-analysis of the deposited data

Results flagged for a closer look

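In 2 of 36 groups of 4 libraries, 1 library lay apart from the others by more than Dixon's critical value of 0.829 allows, which chance gives in about 1 group in 20. Both were groups of WT spleen after G-CSF. Brca2 in replicate 4 was at 4.18 log2 CPM, with the others at 4.34 to 4.38, a gap of 0.836 of the range. Pif1 in replicate 2 was at 2.54 log2 CPM, with the others at 3.22 to 3.33, a gap of 0.868 of the range. Without that library the log2 fold change of Pif1 in WT spleen over WT marrow was 0.88 ± 0.24, against 0.70 ± 0.24 with it.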

How the results depend on the processing

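Most fold changes of the 9 genes kept their direction and their side of the threshold. The count past the threshold for KO over WT in marrow after G-CSF was 0, not 2, without the variance trend, by limma voom, with library quality weights, scaled to the listed genes or fitted on the compared groups alone, and 0 to 2 without 1 library. Over all genes 1, 11, 8, 14 and 3 passed under these settings in that order, against 20 in the main fit. For KO over WT in spleen the count of the 9 was 5, not 0, with quality weights, where 309 of all genes passed against 2 in the main fit. For G-CSF in KO marrow the count of the 9 was 1, not 2, on the compared groups alone (1 to 3 without 1 library). On those groups alone 613 of all genes passed, against 1342 in the main fit. For G-CSF in WT marrow the count of the 9 was 0, not 1, by median-of-ratios scaling or on the compared groups alone (0 to 1 without 1 library). With these 2 settings 1514 and 1311 of all genes passed, against 1528 in the main fit. For WT spleen over marrow the count of the 9 was 1, not 2, without the variance trend. There 1527 of all genes passed, against 1867 in the main fit. The count of the 9 was 3 with quality weights or on the compared groups alone, where Fancd2 also passed, and 0 to 2 without 1 library. The cause was not tested. Same-numbered libraries had deviations correlated at -0.0705 to 0.155, and in no comparison did every such pair exceed 0.1. Whether replicate numbers pair the libraries cannot be told from these low values, and the main fit did not pair them. For G-CSF against saline in KO marrow the same-numbered pairs had r of 0.0545 to 0.142, above the highest other pair at 0.012. For KO against WT in spleen they had -0.0705 to 0.0397, and other pairs reached 0.0933. Spleen and marrow libraries of the same number may share a mouse, which the labels do not say. In WT spleen against marrow such pairs had r of 0.0373 to 0.091, and other pairs reached 0.0415. In KO spleen against marrow they had -0.0133 to 0.155, and other pairs reached 0.086. With a replicate block the counts of the 9 were 0 for KO over WT in marrow after G-CSF, 0 for G-CSF in WT marrow and 0 for WT spleen over marrow. Of all genes 31, 1440 and 1041 passed with the block, in that order, against 20, 1528 and 1867 in the main fit. Fancd2 in saline marrow was -0.010 with the block. These signs turned. In saline marrow Neil3 was -0.035 with quality weights and -0.0070 scaled to the listed genes, and Fancd2 -0.014 with that scaling. Pif1 in KO spleen over marrow was -0.020 by voom, -0.038 with quality weights, -0.010 by median of ratios and -0.00030 with a prior of 2 reads. The tissue interaction of Fancd2 was 0.021 by voom, 0.23 with quality weights and 0.044 scaled to the listed genes. Without 1 library, KO over WT in saline marrow ran from -0.33 to 0.056 for Brca1, -0.14 to 0.020 for Brca2, -0.15 to 0.29 for Fancd2 and -0.24 to 0.50 for Neil3, and Fanca in marrow after G-CSF from -0.34 to 0.036. With G-CSF, Fanca ran from -0.15 to 0.27 in KO marrow and -0.30 to 0.073 in WT marrow, Fancd2 from -0.068 to 0.30 and Fanci from -0.31 to 0.067 in WT marrow. Pif1 in KO spleen over marrow ran from -0.17 to 0.17, the G-CSF interaction of Fanca from -0.026 to 0.42, and tissue interactions from -0.21 to 0.11 (Brca2), -0.16 to 0.29 (Fancd2), -0.099 to 0.28 (Fanci) and -0.090 to 0.21 (Rad51ap1).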
